A study of Mus musculus with 6 samples.

Results

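Red cell lineage genes were followed through RNA of mouse CD8+ T cells. They comprise 4 adult globin genes, Hba-a1 and Hba-a2 for the alpha chain and Hbb-bs and Hbb-bt for the beta chain of hemoglobin, and 5 genes of red cell precursors, Klf1, Epor, Alas2, Slc4a1 and Rhd. These 9 genes were named as genes of the red cell line, with earlier results of these data known, out of 55414 genes measured. All 9 were measured, and all 9 passed the filter on low counts, though Alas2 and Slc4a1 did so through the T4 and naive libraries and not through both N4 libraries. The cells carried the OT-I genotype, a transgenic T cell receptor that recognises an ovalbumin peptide, and came from spleen and lymph nodes, per the sample labels, while the series text names the spleen alone. N4 cells were taken 4 days after the N4 peptide with costimulating antibodies to OX40 and 4-1BB, T4 cells 4 days after the T4 peptide, a weaker ligand of the same receptor, with the same antibodies, and naive cells had no stimulation named. Each of these 3 groups held 2 libraries of polyadenylated RNA, and no sort gate or step to remove red cells is named in the labels used here. The labels do not say that the libraries of a group came from separate mice, so the p-values cover only the spread between libraries, of which some may be technical. The age of the mice is not given in the labels used here.

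Red cells arise in bone marrow and, in mice, also in the spleen, from precursors whose division and survival depend on erythropoietin and its receptor Epor. The transcription factors Gata1 and Klf1 then switch on the globin genes, the enzymes of heme synthesis and the proteins of the red cell membrane. Precursor regulators are lost as the cell matures and expels its nucleus, while globin RNA persists in the reticulocyte, the youngest red cell of the blood. Mature T cells are not known as a source of globin, so these RNAs serve as markers of red cell material in a lymphoid sample. In bulk RNA, fewer cells of a type and less RNA per cell cannot be told apart.

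The globin genes come in near-identical pairs, which bears on how their counts can be read. In the GENCODE M21 annotation of GRCm38, the coding sequences of Hba-a1 and Hba-a2 (426 bases without the stop codon) were 99.77% identical and differed by C381T, counted from 1 at the A of the start codon with Hba-a1 first. Those of Hbb-bs and Hbb-bt (441 bases) were also 99.77% identical and differed by C417T, with Hbb-bs first. The stretches around those bases, from positions 361 to 401 of the alpha pair and 397 to 437 of the beta pair, are shown because they carry the one coding base that tells the copies apart, which is in capitals.
Hba-a1: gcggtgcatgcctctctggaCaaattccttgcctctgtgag
Hba-a2: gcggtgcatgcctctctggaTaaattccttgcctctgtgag
Hbb-bs: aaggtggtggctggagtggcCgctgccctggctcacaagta
Hbb-bt: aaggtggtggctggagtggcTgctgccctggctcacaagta
Reads from elsewhere in the coding sequence could have been split between the copies, so the level of a single copy is uncertain. The sum of all globins and the ratio of summed beta to summed alpha counts are given too. Calls were also counted with each pair summed. Hba-a1 lies on chromosome 11 at 32283511 to 32284465 and Hba-a2 at 32296489 to 32297298, both on the plus strand. Hbb-bs lies on chromosome 7 at 103826534 to 103828096 and Hbb-bt at 103812524 to 103813996, both on the minus strand.

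The members shared a low in N4, though not the order of the T4 and naive libraries. The 250 bases before the RefSeq start (GRCm38.p6) were therefore searched in the 8 members that the RefSeq table holds. The motifs were AGATAA and TGATAA, bound by GATA factors, CCNCNCCC, bound by factors of the KLF family, and the CCAAT and TATAAA boxes, each on both strands with overlapping matches marked together. A GATA motif of either form stood in 7 of the 8 windows, against 17.0% of 27025 promoters of the same length. A KLF motif stood in 4 of 8, against 45.6% of promoters, CCAAT in 6 against 34.5%, and TATAAA in 2 against 13.0%. The windows of Hba-a1 and Hba-a2 carry the same sequence shifted by a few bases, so the same GATA and CCAAT matches are counted for both. A window of each kind is printed here, an alpha and a beta globin gene, the heme enzyme Alas2 and the factor Klf1, with the matches in capitals.
Hbb-bs, chr7:103827929-103828178, minus strand: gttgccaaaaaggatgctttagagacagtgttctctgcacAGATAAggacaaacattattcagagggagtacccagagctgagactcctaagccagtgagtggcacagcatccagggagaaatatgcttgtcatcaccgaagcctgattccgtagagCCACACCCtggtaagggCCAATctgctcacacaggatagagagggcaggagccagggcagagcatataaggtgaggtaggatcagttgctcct
Hba-a2, chr11:32296242-32296491, plus strand: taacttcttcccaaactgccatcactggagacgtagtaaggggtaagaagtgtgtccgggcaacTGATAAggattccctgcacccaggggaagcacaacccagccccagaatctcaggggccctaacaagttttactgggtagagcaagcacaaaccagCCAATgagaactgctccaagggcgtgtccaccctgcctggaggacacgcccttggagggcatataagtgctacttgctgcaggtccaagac
Alas2, chrX:150547167-150547416, plus strand: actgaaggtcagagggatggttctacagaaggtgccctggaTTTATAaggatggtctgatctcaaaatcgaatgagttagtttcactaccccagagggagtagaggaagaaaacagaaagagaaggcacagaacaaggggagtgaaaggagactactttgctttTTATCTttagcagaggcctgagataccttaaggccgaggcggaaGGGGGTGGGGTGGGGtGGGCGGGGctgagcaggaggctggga
Klf1, chr8:84901732-84901981, plus strand: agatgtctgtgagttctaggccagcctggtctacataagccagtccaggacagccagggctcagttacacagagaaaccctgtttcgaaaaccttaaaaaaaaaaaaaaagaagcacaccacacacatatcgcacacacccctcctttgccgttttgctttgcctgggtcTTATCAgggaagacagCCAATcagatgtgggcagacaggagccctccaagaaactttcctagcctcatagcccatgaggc
In the Hbb-bs window the match to the KLF motif lies a short way before the CCAAT box, with the GATA motif farther out. In the Alas2 window 4 matches to the KLF motif lie close together near the start, 3 of them overlapping. A match is a description of letters and not of binding, and some windows reach into transcripts that GENCODE starts farther out than RefSeq does.

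The libraries held between 269033066 and 335968843 estimated counts each, with 21317 to 27147 genes above 0. Levels are given as CPM, counts scaled to a common library size after TMM scaling, a correction for differences in RNA composition. The CD8 T cell markers Cd8a, Cd8b1, Cd3e, Cd3d, Cd3g, Trac and Lck were present in every library, and none of the 7 passed the threshold in any comparison by edgeR. At an unadjusted p under 0.05 by edgeR there were 2 in each. Beside them stood 30.8% of all genes in N4 against naive, 14.5% in T4 against naive and 29.2% in N4 against T4. DESeq2 called 2 of the 7 in N4 against naive, 1 in T4 against naive and 1 in N4 against T4. Of all genes it called 4.41% higher and 5.25% lower in T4 against naive, and 12.8% higher in N4 against T4. Its counts over all genes in each comparison are given further on, and no result about the markers is read from these calls. Cd4, the marker of the other main T cell class, did not exceed 0.108 CPM in any library. Foxp3, the other gene of the CD4 T cell list, was above Cd4 in every library but T4 replicate 2, where it had 0.0155 CPM. It stood at 0.945 CPM in naive replicate 2 and was higher still in N4 replicate 2. By the CD8 markers and Cd4 the label of CD8+ T cells was met, beside Foxp3 and the other cells described further on.

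Globin RNA was abundant in T4 and naive libraries and scarce in N4 libraries. Hba-a1 had 141.3 and 112.2 CPM after N4, 2308 and 2859 after T4, and 1177 and 3286 in naive libraries. Hba-a2, the neighbouring copy, had 99.9 and 85.2 CPM after N4, 1759 and 2193 after T4, and 906.4 and 2464 in naive libraries. Both alpha genes were lowest in N4, with no overlap with the other groups, while the T4 libraries lay between the naive libraries after TMM scaling.

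The beta genes followed the same order. Hbb-bs had 101.4 and 97.3 CPM after N4, 1477 and 1869 after T4, and 818.6 and 2063 in naive libraries. Hbb-bt had 76.0 and 63.7 CPM after N4, 938.9 and 1178 after T4, and 530.8 and 1374 in naive libraries. For all 4 globins 1 naive library was below and the other above both T4 libraries, and N4 was below all of them.

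In sum the 4 globins came to 418.5 and 358.4 CPM after N4, 6483 and 8099 after T4, and 3432 and 9187 in naive libraries. As a share of all counts, with no scaling, they made up 0.0344% and 0.0230% after N4, 0.882% and 1.04% after T4, and 0.449% and 0.765% in naive libraries. The order of T4 and naive libraries thus turned on the scaling: in CPM after TMM they overlapped, and as shares of all counts both T4 libraries were above both naive libraries. The T4 libraries had TMM factors of 1.36 and 1.283, and the naive libraries 1.307 and 0.833. The group means of that share were 0.0287% ± 0.0080 after N4, 0.960% ± 0.111 after T4 and 0.607% ± 0.224 in naive libraries (SD, n = 2 each). With 2 libraries a group the smallest p that an exact permutation test can give is 0.33, so the shares carry no test.

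**Figure D1:**
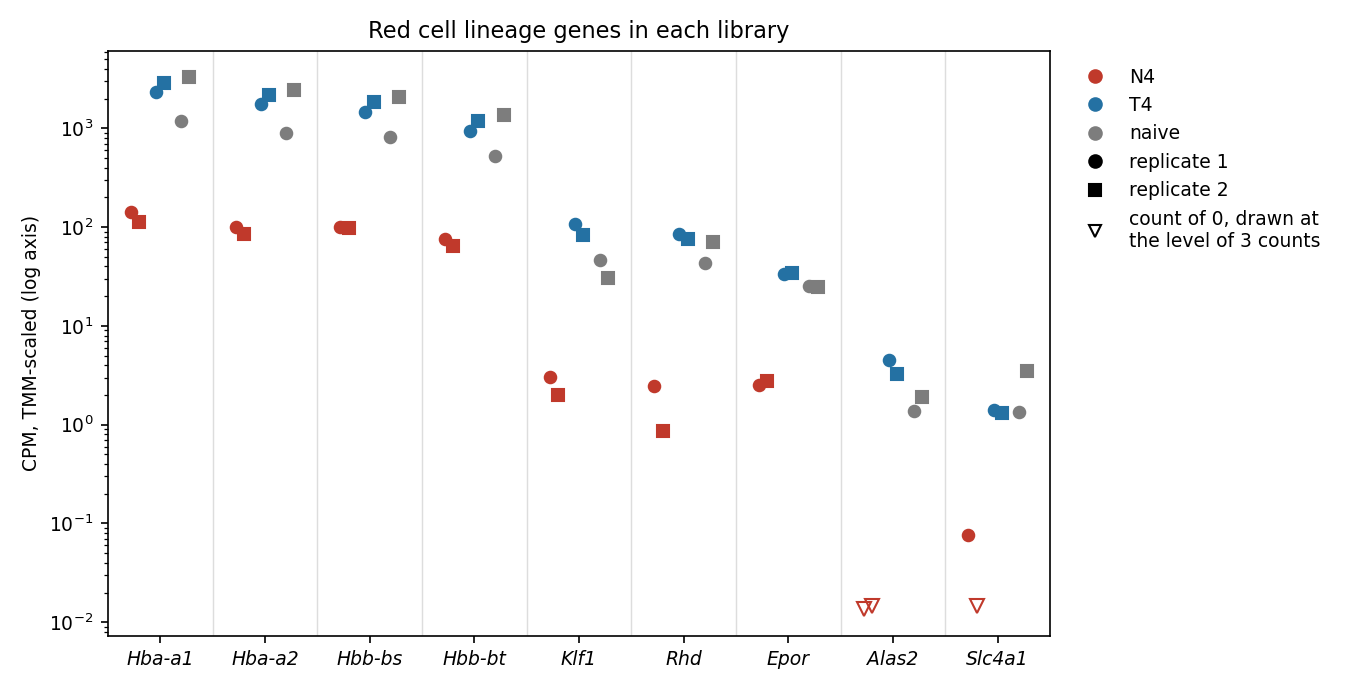
CPM after TMM scaling (log axis) of the 9 red cell genes in each library, with N4, T4 and naive side by side and a marker for each replicate. For every gene both N4 points lie below all 4 others, and Alas2 is at 0 in both N4 libraries.

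The precursor genes were far less abundant but had a similar low in N4. Klf1, the factor that switches on adult beta globin, had 3.03 and 2.02 CPM after N4, 108.2 and 82.4 after T4, and 46.4 and 30.9 in naive libraries. Epor, the erythropoietin receptor, had 2.53 and 2.77 CPM after N4, 33.6 and 34.5 after T4, and 25.1 and 24.9 in naive libraries. The 3 groups did not overlap for either gene, with N4 lowest and T4 highest.

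Alas2, the enzyme that commits red cell precursors to heme synthesis, was not detected in N4, with 0 counts in both libraries, which allows up to 0.0136 and 0.0147 CPM at 3 counts. It had 4.54 and 3.24 CPM in T4 and 1.37 and 1.89 in naive libraries, or 473 to 1833 counts. Both T4 libraries were above both naive libraries. Its exons overlap those of Apex2 and Mir3620 in the annotation, and the kit does not mark strand, so reads from the shared exons cannot be assigned with certainty.

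The membrane genes differed from each other. Rhd, which encodes the mouse relative of the Rh blood group proteins, had 2.47 and 0.86 CPM after N4, 85.0 and 75.1 after T4, and 43.0 and 71.5 in naive libraries. Slc4a1, which encodes band 3, the anion exchanger of mature red cells, had 0.077 and 0 CPM after N4, 1.40 and 1.32 after T4, and 1.34 and 3.46 in naive libraries. Rhd was highest in T4 with no overlap, whereas the T4 and naive libraries overlapped for Slc4a1, whose highest value was in a naive library. Slc4a1 counts were 17 and 0 in N4, so its fold change rests on very few counts.

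Klf1 lies on chromosome 8 at 84901928 to 84905291 (plus), Epor on chromosome 9 at 21958897 to 21963506 (minus) and Rhd on chromosome 4 at 134864536 to 134896172 (plus). Alas2 lies on chromosome X at 150547375 to 150570638 (plus) and Slc4a1 on chromosome 11 at 102348824 to 102366203 (minus), all in GRCm38. A single transcript model carried most counts of most members, such as Hbb-bs-201 with 99.5% to 99.8% of Hbb-bs counts. For Alas2 the main protein-coding model held 84.4% to 99.8% of the counts in T4 and naive libraries. For Klf1 a transcript outside the annotation held 79.7% of its counts in N4 replicate 2, against at most 3.13% in the other 5 libraries.

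Levels per length are given in TPM, where counts are divided by transcript length before scaling. By group means, alpha genes stood above beta genes and all globins above all precursor genes in every group. Mean levels in N4 were 112 ± 39.9 TPM for Hba-a1, 102 ± 31.6 for Hba-a2, 96.3 ± 22.1 for Hbb-bs and 60.9 ± 19.5 for Hbb-bt (SD, n = 2). In T4 they were 4461 ± 379.4, 4295 ± 385.2, 3216 ± 321.4 and 1812 ± 171.4 TPM for the same genes, and in naive libraries 2544 ± 666.4, 2428 ± 590.1, 1857 ± 355.8 and 1088 ± 228.1. On this scale, too, both T4 libraries were above both naive libraries for all 4 globins. These SD are between libraries and are not the spread of a difference between genes within a library. Hba-a1 was above Hba-a2 in every library. Hba-a2 was above Hbb-bs in every library but N4 replicate 2, where they stood at 80.1 and 80.7 TPM.

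The order among precursor genes varied by group. In T4 it was Klf1 (74.7 ± 20.4 TPM), Rhd (64.2 ± 9.81), Epor (24.2 ± 1.08), Alas2 (2.41 ± 0.793) and Slc4a1 (0.363 ± 0.0398). In naive libraries it was Rhd (32.5 ± 3.27 TPM), Klf1 (24.5 ± 16.7), Epor (13.6 ± 5.97), Alas2 (0.833 ± 0.0013) and Slc4a1 (0.455 ± 0.0454). In N4 the means were 0.954 ± 0.124 TPM for Epor, 0.734 ± 0.840 for Klf1 and 0.713 ± 0.591 for Rhd. Klf1 was the highest of these in N4 replicate 1 and Epor in N4 replicate 2. The Klf1 value of N4 replicate 2 leaves out the transcript outside the annotation, which held 79.7% of its counts there. The order of Epor, Klf1 and Rhd in N4 is therefore uncertain. Slc4a1 was at 0.0059 ± 0.0083 and Alas2 at 0. Klf1 was above Rhd in both T4 libraries and in naive replicate 1, and below it in naive replicate 2.

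Set against naive cells, N4 cells show how red cell RNA stood once the potent peptide and the antibodies had been given. By edgeR's quasi-likelihood test, 8 of the 9 genes fell (adjusted p under 0.05 over 23003 genes), while 7.18% of all genes tested fell and 12.1% changed in either direction. Of the 7 that were over the filter's limit (0.0332 CPM before TMM) in every library, which leaves out Alas2 and Slc4a1, 7 fell. The median log2 fold change of the 9 was -4.14, beside -0.09 over all genes tested, and all 9 had lower CPM in both N4 libraries than in both naive libraries, as did 28.9% of all genes tested.

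Among the globins, Hba-a1 was 17.6-fold lower in N4 (log2 fold change -4.14, SE 0.56, edgeR adjusted p = 0.0134) and Hba-a2 18.2-fold lower (-4.19, SE 0.55, adjusted p = 0.0123). Hbb-bs was 14.5-fold lower (-3.86, SE 0.51, adjusted p = 0.0124) and Hbb-bt 13.6-fold lower (-3.77, SE 0.52, adjusted p = 0.0134). Of the precursor genes, Rhd fell most among those with counts in both N4 libraries, 34.3-fold (-5.10, SE 0.62, adjusted p = 0.0108). Klf1 fell 15.3-fold (-3.94, SE 0.38, adjusted p = 0.00813) and Epor 9.44-fold (-3.24, SE 0.24, adjusted p = 0.0071). Alas2 was at least 116-fold lower, taking 3 counts per N4 library as the floor (edgeR adjusted p = 0.00809), and since it passed the filter only through T4 and naive libraries, this p adds no support. Slc4a1 was not called, with a log2 fold change of -5.93 (SE 1.46, edgeR adjusted p = 0.0519).

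Leaving out N4 replicate 1 reduced the calls to 5 and leaving out N4 replicate 2 to 4, with the 4 globins at adjusted p = 0.0556 to 0.0722 and log2 fold changes of -4.32 to -3.65. Without naive replicate 2 the globins had log2 fold changes of -3.30 to -2.93 against naive, and without naive replicate 1 -4.87 to -4.43, with all 4 called each time. Slc4a1, with 17 and 0 counts in N4, was called with no filter on low counts (edgeR adjusted p = 0.00151) and by DESeq2 (adjusted p = 3.46e-06). It is also among the genes called without N4 replicate 1. The N4 library left there held 0 counts of it, so that call adds no support.

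The comparison of N4 with T4 sets the potent peptide beside the weaker one, with both groups stimulated. Here too 8 of the 9 genes fell, against 4.47% of all genes tested that fell and 7.96% that changed in either direction, and the median log2 fold change was -4.42, beside -0.20 over all genes. All 9 were lower in both N4 libraries than in both T4 libraries, as were 37.6% of all genes tested. Klf1 was 37.7-fold lower in N4 than in T4 (log2 fold change -5.24, SE 0.40, edgeR adjusted p = 0.0127) and Rhd 48.0-fold lower (-5.59, SE 0.63, adjusted p = 0.0193). Epor was 12.8-fold lower (-3.68, SE 0.24, adjusted p = 0.0127). Alas2 was at least 276-fold lower (edgeR adjusted p = 0.0127). It passed the filter only through T4 and naive libraries, so this p adds no support here either. The 4 globins had log2 fold changes of -4.42 to -3.92, or 15.2-fold to 21.3-fold lower (edgeR adjusted p = 0.0225 to 0.023). Slc4a1 had a log2 fold change of -5.12 (SE 1.41, edgeR adjusted p = 0.0755). Without N4 replicate 1 the N4 library left held 0 counts of Slc4a1, so its call there adds no support. With a group down to 1 library few calls could be made: 5 genes were called without N4 replicate 1, 0 without N4 replicate 2, 3 without T4 replicate 1 and 0 without T4 replicate 2, the last at adjusted p = 0.0557 or more for each of the 8. Without the same libraries 295, 0, 45 and 0 of all genes were called, so the lost calls show nothing particular to the red cell genes, whose median log2 fold changes were -4.54, -4.20, -4.62 and -4.28. Of the 7 genes over the filter's limit in every library, 7 fell. Under library size scaling the globins had log2 fold changes of -5.25 to -4.76, where the median over all genes moved to -1.05. N4 against naive and N4 against T4 share the N4 libraries.

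The comparison of T4 with naive cells asks what the weaker peptide and the antibodies left different from unstimulated cells. By edgeR 0 of the 9 genes passed the threshold, with 0.117% of all genes passing. With edgeR's unadjusted p under 0.05, a rule that took in 14.5% of all genes tested, there were 2, Klf1 and Alas2. Klf1 was 2.46-fold higher in T4 (log2 fold change 1.3, SE 0.34, edgeR adjusted p = 0.18) and was the 1 gene of the 9 called by DESeq2 (adjusted p = 0.0162), which called 4.41% of the genes it tested as higher. Alas2 had a log2 fold change of 1.25 (SE 0.45, adjusted p = 0.31), Rhd 0.49 (SE 0.52, adjusted p = 0.761) and Epor 0.44 (SE 0.22, adjusted p = 0.426). These 4 precursor genes were higher in both T4 libraries than in both naive libraries, as were 26.2% of all genes tested. The globins had log2 fold changes of 0.15 to 0.23 (SE 0.45 to 0.50, adjusted p = 0.898 to 0.936) and Slc4a1 -0.82 (SE 1.16, adjusted p = 0.827). All 4 globin values turned negative without T4 replicate 2 or without naive replicate 1, and the Slc4a1 value turned positive without naive replicate 2.

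**Figure D2:**
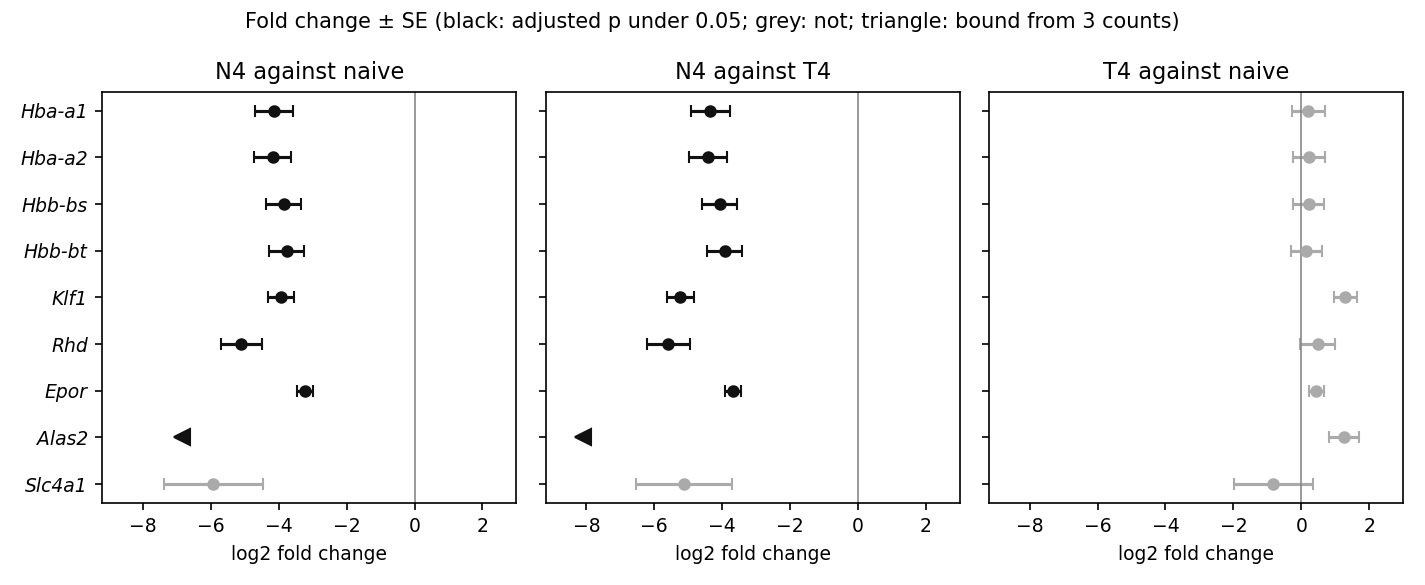
Log2 fold changes of the 9 genes with SE in N4 against naive, N4 against T4 and T4 against naive, with black points for adjusted p under 0.05 and triangles for bounds from a floor of 3 counts. In both comparisons of N4 all points lie below -3, and in T4 against naive the points from Klf1 (1.3) to Slc4a1 (-0.82) are all grey.

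Precursor genes and globins were set against each other within each library, which needs no scaling between libraries. Summed counts of the 5 precursor genes per 1000 globin counts were 19.4 and 15.8 after N4, 35.9 and 24.3 after T4, and 34.2 and 14.4 in naive libraries. Both N4 libraries were below both T4 libraries, while the naive libraries lay apart from each other and overlapped with N4 and with T4. The single genes did not all share this order. Per 1000 globin counts, Klf1, Rhd and Alas2 were lower in both N4 than in both T4 libraries, and Slc4a1 overlapped. Epor went the other way, at 6.05 and 7.73 in N4 and 5.18 and 4.26 in T4. Group means were 17.6 ± 2.57 after N4, 30.1 ± 8.23 after T4 and 24.3 ± 13.9 in naive libraries (SD, n = 2). The difference between N4 and T4 was larger than the SD of either group, and the differences from naive libraries were smaller than the SD of the naive libraries.

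In levels, the summed precursor genes had 8.12 and 5.65 CPM after N4, 232.8 and 196.6 after T4, and 117.2 and 132.7 in naive libraries. Compared with naive libraries, the N4 mean was 18.2-fold lower for the precursor genes and 16.2-fold lower for the globins. Against T4 it was 31.2-fold lower for the precursor genes and 18.8-fold lower for the globins. With TMM, T4 over naive came to 1.72 for the precursor genes and 1.16 for the globins. Shares of all counts, without TMM, are another measure and are not to be set beside these folds. The globin share was 33.5-fold lower in N4 than in T4, and T4 over naive came to 1.58. The mean precursor share was 0.000514% after N4, 0.0284% after T4 and 0.0132% in naive libraries.

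The 2 naive libraries differed in a way that the summed ratio hides. Globins were higher in naive replicate 2 (9187 CPM) than in replicate 1 (3432 CPM), and so were Rhd and Slc4a1. Klf1 had the reverse order (30.9 CPM in replicate 2 and 46.4 in replicate 1). The order turned with TMM for Alas2, at 1.89 CPM in replicate 2 and 1.37 in replicate 1 with it and 1.58 and 1.79 without it. Epor stood at 24.9 CPM in replicate 2 and 25.1 in replicate 1 with TMM and at 20.8 and 32.8 without it. Per 1000 globin counts, Klf1 stood at 7.25 and 5.63 after N4, 16.7 and 10.2 after T4, and 13.5 and 3.36 in naive libraries. Slc4a1, the marker of late precursors and mature red cells, stood at 0.184 and 0 after N4, 0.217 and 0.163 after T4, and 0.391 and 0.377 in naive libraries. Slc4a1 per globin was thus higher in both naive libraries than in all others. In counts, Klf1 per globin was lower in both N4 than in both T4 libraries, with the naive libraries 1 below N4 and 1 within the T4 range. In N4 replicate 2, 79.7% of Klf1 counts came from a transcript outside the annotation. Divided by transcript length, which leaves that transcript out, Klf1 per 1000 globins was 2.94 and 0.478 in N4 and 6.91 and 4.11 in T4. On that measure the naive libraries stood at 5.49 and 1.37, so naive replicate 2 lay within the N4 range.

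The balance of globin chains also differed. Beta over alpha counts came to 0.735 and 0.815 after N4, 0.594 and 0.603 after T4, and 0.648 and 0.598 in naive libraries. Both N4 libraries were above all 4 others, with means of 0.775 ± 0.0567 after N4, 0.599 ± 0.0065 after T4 and 0.623 ± 0.0354 in naive libraries (SD, n = 2), a difference larger than the SD of either group. The split within each pair was nearly constant. Hba-a1 took 56.5% to 58.6% of alpha counts and Hbb-bs 57.2% to 61.3% of beta counts over the 6 libraries, with both extremes of low Hbb-bs and high Hba-a1 in N4 replicate 1.

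**Figure D3:**
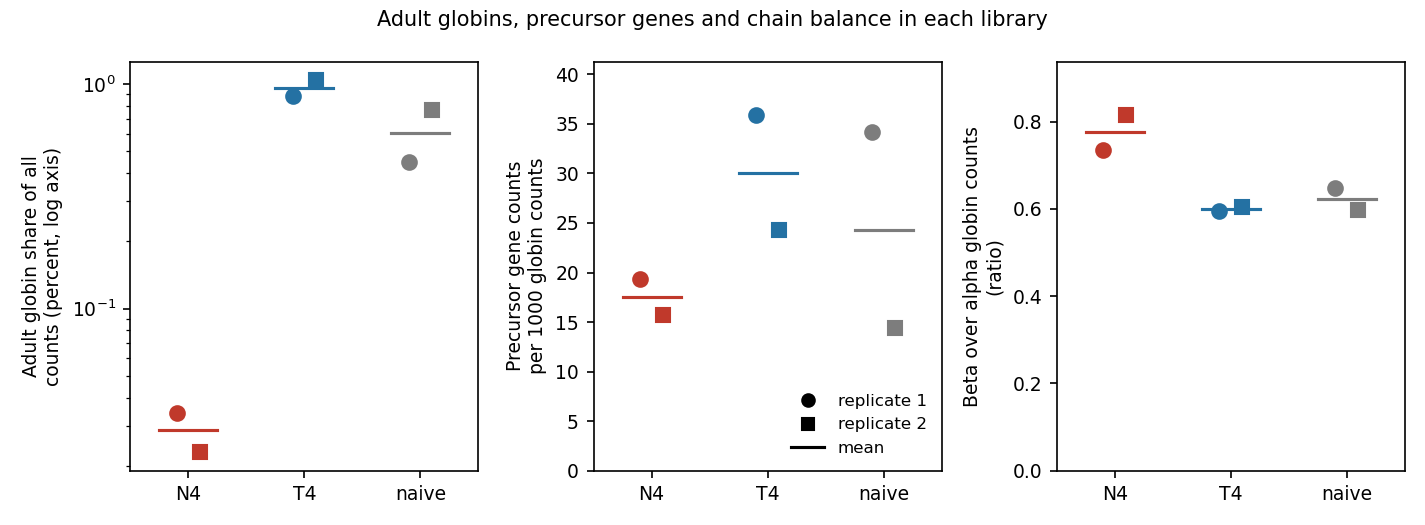
Globin share of all counts, precursor counts per 1000 globin counts and beta over alpha globin in each library, with a line at each group mean and a marker for each replicate. The globin share is lowest in N4 (0.0287%), the precursor ratio is lower in both N4 than in both T4 libraries and overlaps with naive libraries, and both N4 libraries have the highest beta over alpha values (0.735 and 0.815).

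Red cell genes beyond the 9 were read from lists by role, which include members where they belong. As before, 7.18% of all genes tested fell in N4 against naive and 4.47% in N4 against T4, and each list's counts are to be read beside these shares. The shares hold for TMM scaling. Under library size scaling the median log2 fold change over all genes moved from -0.09 to -0.65 against naive and from -0.20 to -1.05 against T4. Counts under that scaling are therefore not to be read beside these shares. A gene at 0 in N4 passed the filter only through the other groups, so its call adds no support, and counts of genes over the filter's limit in every library are given where they differ. Of 12 erythroid transcription factors, 10 fell in N4 against naive and 10 in N4 against T4, with median log2 fold changes of -2.53 and -3.45. Zfpm1, a partner of Gata1, was not called in either comparison (1.41, adjusted p = 0.0803 against naive, and 0.04 against T4). Cbfa2t3, a corepressor, was the other one not called against naive, and Ldb1, which joins distant enhancers to promoters, the other one against T4. These were singled out after their values were seen. Gata1, the master factor of red cells and megakaryocytes, had 2.14 and 2.03 CPM after N4, 38.9 and 31.9 after T4, and 13.1 and 14.0 in naive libraries. It was 6.5-fold lower in N4 than in naive (log2 fold change -2.70, SE 0.25, edgeR adjusted p = 0.00782) and 17.0-fold lower than in T4 (adjusted p = 0.0127). All 3 groups were apart for Gata1, with T4 highest.

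Nfe2, a globin gene activator also used by megakaryocytes, had 0.716 and 1.73 CPM after N4, 35.5 and 33.2 after T4, and 12.6 and 11.9 in naive libraries. Bcl11a, the silencer of fetal globin and a factor of lymphoid cells, had 1.83 and 1.24 CPM after N4, 16.7 and 16.1 after T4, and 8.37 and 8.52 in naive libraries. Lmo2, the bridge between Tal1 and Ldb1, had 14.0 and 11.0 CPM after N4, 89.9 and 95.9 after T4, and 55.8 and 104.5 in naive libraries. The groups were apart for Nfe2 and Bcl11a in the order N4, naive, T4 from low to high, while T4 and naive overlapped for Lmo2 after TMM scaling. In T4 against naive 0 of the 12 factors passed the threshold by edgeR, 10 had an unadjusted p under 0.05 (14.5% of all genes) and DESeq2 called 9, all higher (4.41% of all genes). The list's median was 1.34, and 10 of the 12 were higher in both T4 libraries than in both naive libraries, as were 26.2% of all genes. Under library size scaling 7 of the 12 fell in N4 against naive, and leaving out N4 replicate 2 left 3.

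Of 17 membrane and blood group genes tested, 8 fell in N4 against naive and 7 in N4 against T4 (medians -2.64, or -2.33 with genes at 0 in N4 set at their bound, and -2.93). Of the 11 over the filter's limit in every library 7 and 6 fell. Ermap, an erythroid surface protein, had a log2 fold change of -2.20 against naive (SE 0.28, edgeR adjusted p = 0.0113), at 1.54 and 2.08 CPM in N4 and 8.31 and 8.28 in naive libraries. Aqp1, the water channel, stood at 2.18 and 2.12 CPM in N4 and 16.1 and 13.6 in naive libraries (-2.78, SE 0.36, adjusted p = 0.012). Rhag, the partner of Rhd in the membrane, stood at 4.38 and 3.08 CPM after N4, 20.2 and 14.6 after T4, and 17.8 and 16.8 in naive libraries. Its log2 fold change against naive, -2.21 (SE 0.31, adjusted p = 0.0142), was smaller than that of Rhd. None of the 17 passed in T4 against naive by edgeR (3 at an unadjusted p under 0.05, beside 14.5% of all genes, and 2 by DESeq2, both higher, beside 4.41%).

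In the cytosol list 3 of 9 genes tested fell in both comparisons of N4, and Ahsp was not analysed here. They were Blvrb, an enzyme that reduces biliverdin, and the carbonic anhydrases Car1 and Car2, which hydrate carbon dioxide. Blvrb had 8.95 and 6.10 CPM after N4, 269.5 and 245.1 after T4, and 127.3 and 115.2 in naive libraries (16.1-fold lower in N4 than in naive, edgeR adjusted p = 0.0071). Car1 had 162.3 and 133.0 CPM after N4, 1914 and 1942 after T4, and 848.1 and 1470 in naive libraries (7.85-fold lower, adjusted p = 0.0108). Car2 had 19.4 and 13.1 CPM after N4, 353.3 and 315.2 after T4, and 185.7 and 203.7 in naive libraries (12.0-fold lower, adjusted p = 0.0071). All 3 were lowest in N4 and highest in T4 with no overlap. Gpx1, a peroxidase that T cells also make, was not called, with 1177 and 1299 CPM after N4, 2494 and 2635 after T4, and 2189 and 4213 in naive libraries. Under library size scaling 6 of the 9 fell in both comparisons, where the median log2 fold change over all genes was -0.65 and -1.05.

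Heme synthesis, which every cell carries out, split by gene. In N4 against naive 2 of 11 fell, Alas2 and Slc25a38, the carrier that brings glycine into the mitochondria of red cell precursors (log2 fold change -1.69, SE 0.39, edgeR adjusted p = 0.0441). In N4 against T4 4 of 11 fell: these genes and Urod and Alad, enzymes of intermediate steps (-2.17 and -2.28, adjusted p = 0.0247 and 0.0479). Urod stood at 13.1 and 10.2 CPM after N4, 54.3 and 50.4 after T4, and 30.3 and 19.9 in naive libraries. Tmem14c, a carrier of heme precursors, went the other way without passing the threshold, at 1074 and 1366 CPM after N4, 370.0 and 416.0 after T4, and 377.1 and 736.6 in naive libraries. Of the 10 over the filter's limit in every library 1 and 3 fell. Under library size scaling 1 gene was called higher and 1 lower in N4 against naive, and 1 higher and 2 lower in N4 against T4. Alas1, the form of the first enzyme used outside red cells, overlapped between N4 and naive, at 7.05 and 4.97 CPM in N4 and 7.82 and 5.21 in naive libraries.

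Among receptors and iron uptake genes 3 of 10 fell in both comparisons of N4: Epor, Steap3, an iron reductase, and Kit, the stem cell factor receptor of early precursors and mast cells. Steap3 had 2.1 and 2.2 CPM after N4, 12.9 and 14.0 after T4, and 10.4 and 8.50 in naive libraries (log2 fold change -2.14 against naive, SE 0.27, edgeR adjusted p = 0.0113). Kit had 0.24 and 0.366 CPM after N4, 4.95 and 5.0 after T4, and 2.35 and 3.18 in naive libraries (-3.19, SE 0.42, adjusted p = 0.0123). Both were lowest in N4 and highest in T4. Tfrc, the transferrin receptor that dividing T cells also use, was not called, with 16.3 and 20.2 CPM after N4, 12.7 and 12.5 after T4, and 9.79 and 16.3 in naive libraries. Slc11a2, an iron transporter, had log2 fold changes of -1.39 and -1.26 that were not called (adjusted p = 0.0618 and 0.0839).

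Of 12 genes of reticulocyte maturation 4 fell in N4 against naive, among them Bnip3l, which drives removal of mitochondria, Tent5c, a poly(A) polymerase, and Trim58, a ubiquitin ligase of late precursors. Bnip3l stood at 34.7 and 33.7 CPM after N4, 86.6 and 81.3 after T4, and 103.1 and 93.2 in naive libraries (log2 fold change -1.52 against naive, SE 0.22, edgeR adjusted p = 0.0147). In N4 against T4 4 fell, Bnip3l, Trim58 and Ube2l6 among them, and 1 rose, Xpo7, a nuclear exporter (1.44, adjusted p = 0.0395), beside 3.48% of all genes that rose. Xpo7 was not called under library size scaling. Ube2l6 and Xpo7 were singled out after their values were seen. Trim58 was at 0 in both N4 libraries. Of the 10 over the filter's limit in every library 3 fell in each comparison of N4. Of the embryonic and minor globins 2 of 6 were tested, Hbq1a and Hbq1b, theta globins of little known function. Hbq1a was at 0 in both N4 libraries and called against naive (at least 17.5-fold lower, edgeR adjusted p = 0.0488), a call that rests on the libraries through which it passed the filter, with at most 0.416 CPM in any library. The embryonic genes Hbb-y and Hbb-bh1 reached at most 0.136 and 0.0706 CPM in any library.

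In T4 against naive edgeR called 0 genes of the cytosol, heme, receptor and maturation lists. At an unadjusted p under 0.05 there were 2 of 9, 3 of 11, 0 of 10 and 3 of 12, beside 14.5% of all genes. DESeq2 called 1 and 2 higher in the cytosol and heme lists (4.41% of all genes), 0 in the receptor list and 2 lower in the maturation list (5.25% of all genes).

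**Figure D4:**
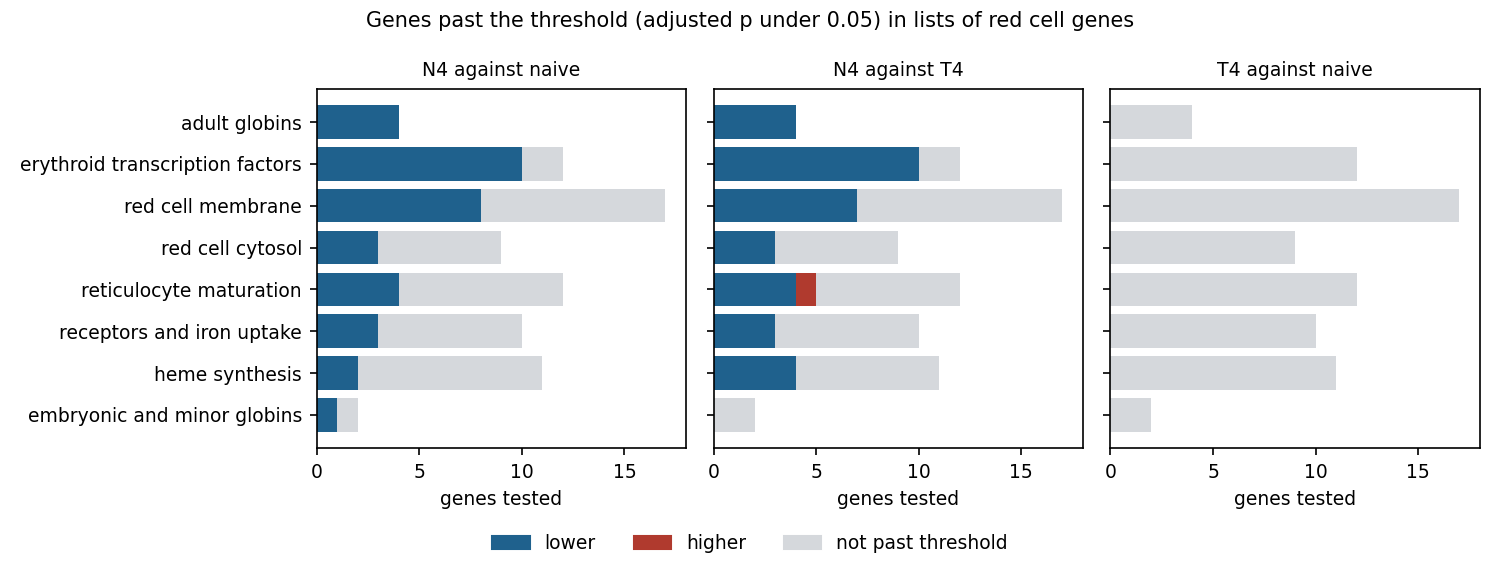
Number of genes tested in 8 lists of red cell genes, split into lower, higher and not past the threshold (edgeR adjusted p under 0.05), for N4 against naive, N4 against T4 and T4 against naive. Transcription factors have the most calls (10 of 12 lower in both N4 comparisons), heme synthesis has 2 and 4 of 11, and edgeR calls no gene of these lists in T4 against naive.

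Markers of other cells moved beside these genes. Summed markers of megakaryocytes and platelets, which share a progenitor and factors such as Gata1 with red cells, came to 27.4 and 38.6 CPM after N4, 189.5 and 215.6 after T4, and 153.4 and 299.9 in naive libraries. Of these 9 markers 7 fell in N4 against naive and 6 in N4 against T4, and 5 of 9 were at 0 in N4 replicate 2. Of the 3 over the filter's limit in every library 3 fell in each, beside 7.18% and 4.47% of all genes. Summed B cell markers came to 4.12 and 2.57 CPM after N4, 55.8 and 53.9 after T4, and 25.6 and 65.5 in naive libraries, with 4 of 6 lower in both comparisons of N4, or 3 of the 4 over the filter's limit in every library. Both lists, like the globins, were lowest in N4, and their part in the red cell values was not tested.

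Red pulp macrophages, which engulf spent red cells, had another pattern. Their summed markers came to 3.53 and 2.56 CPM after N4, 8.56 and 8.90 after T4, and 1042 and 337.0 in naive libraries. The defining factor Spic was at 0 in both N4 libraries, at 0.235 and 0.0646 CPM in T4, and at 13.2 and 2.83 CPM in naive libraries. Of 12 markers 11 fell in N4 against naive and 2 in N4 against T4, or 4 and 0 of the 4 over the filter's limit in every library. Of all genes tested 7.18% and 4.47% fell. In summed macrophage markers both T4 libraries lay below both naive libraries. By edgeR 0 of the 12 passed the threshold in T4 against naive, beside 0.117% of all genes. At an unadjusted p under 0.05 by edgeR there were 11, all lower in T4, beside 14.5% of all genes in either direction. Cd163, a hemoglobin scavenger receptor, was not among them, at 1.86 and 1.17 CPM in T4 and 1.12 and 0.557 in naive libraries.

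Neutrophil markers came to 49.3 and 40.0 CPM after N4, 14.7 and 7.27 after T4, and 2475 and 25392 in naive libraries. They were lowest in T4, where globins were high, and highest in naive replicate 2, which also had the most globin in CPM after TMM scaling. Of 10 neutrophil markers 8 fell in N4 against naive, or 6 of the 7 over the filter's limit in every library, beside 7.18% of all genes. In N4 against T4 0 passed by edgeR (3 at an unadjusted p under 0.05, beside 29.2% of all genes, and 3 higher by DESeq2, beside 12.8%). CD8 markers in sum came to 4847 and 6258 CPM after N4, 3898 and 4193 after T4, and 5660 and 7418 in naive libraries, so they varied far less than the globins.

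**Figure D5:**
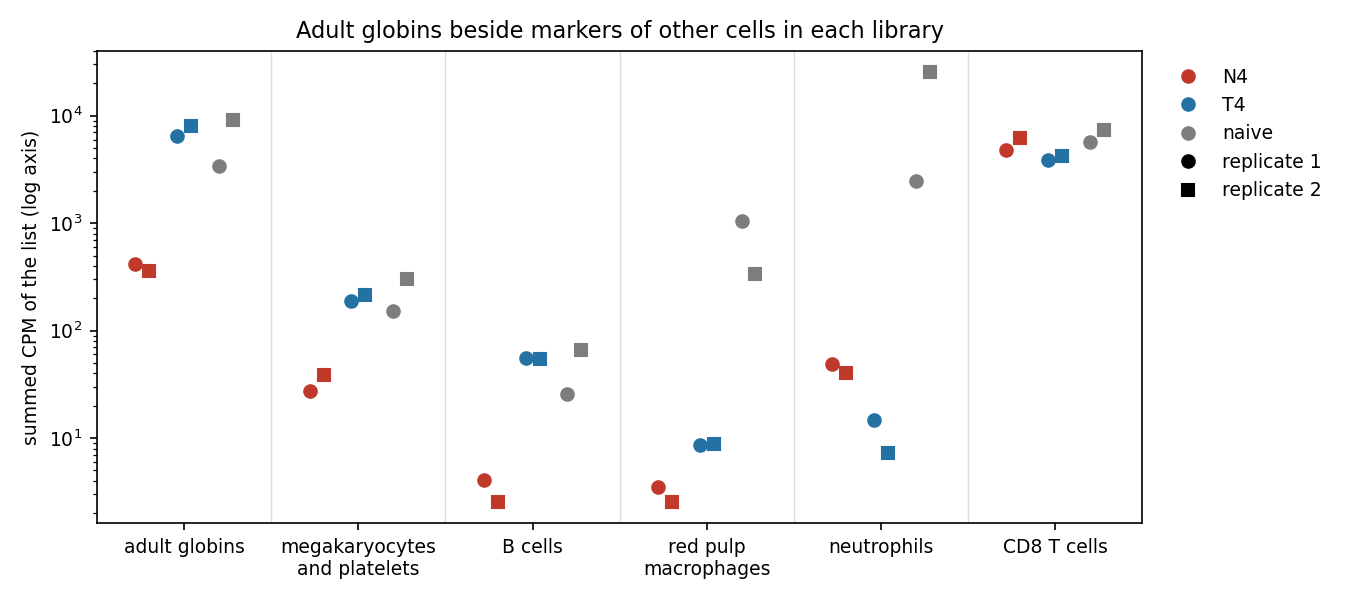
Summed CPM (log axis) of the adult globins and of marker lists of megakaryocytes and platelets, B cells, red pulp macrophages, neutrophils and CD8 T cells in each library. Globins, platelet markers and B cell markers are lowest in N4 and, after TMM scaling, overlap between T4 and naive libraries, while macrophage and neutrophil markers are high in naive libraries alone.

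The genes most like the red cell profiles were taken from 10351 genes by Pearson correlation of log2 CPM over the 6 libraries, given as a description. With the summed globins, the closest were Lmo2 (r = 0.9985), Tceal8 (0.9967), Cd79a, a part of the B cell receptor (0.9956), Spin2c (0.9947) and Unc119 (0.9945). Cd79a had 1.24 and 0.689 CPM after N4, 36.8 and 34.1 after T4, and 12.6 and 50.6 in naive libraries, with the same order of libraries within the naive group as the globins. With the sum of Klf1, Rhd, Alas2 and Slc4a1, the closest were C1qtnf12 (0.9999), Car2 (0.9993), Rhbdd3 (0.9986), Rpl19 (0.9986) and Khk (0.9968). C1qtnf12, a secreted relative of complement C1q, had 12.7 and 7.23 CPM after N4, 231.3 and 188.3 after T4, and 116.6 and 136.2 in naive libraries. Over so few libraries in 3 groups, 586 genes had r above 0.9 with the globins and 811 with the precursor genes, and Rpl19, a ribosomal protein gene of every cell, is among the closest.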

How the data were processed

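Polyadenylated RNA of 6 libraries in 3 groups of 2 was measured. Per the labels' protocols, extraction used the QIAGEN miRNeasy Micro kit and library preparation a SMARTer ultra-low poly(A) kit. Named in the submitters' processing notes, without roles, are mm39, DESeq2 1.30.1, R 4.0.5, StringTie 2.1.0, SAMtools 1.9 and STAR 2.7.1a. The authors deposited estimated counts per gene (55414) and per transcript (142435), as whole numbers and not normalized. The sources used here do not say how these estimates relate to numbers of reads, so intervals and floors cover counting error only. Symbols matched 52081 gene identifiers, and transcript lengths 97.1% of transcripts. The annotation (GENCODE M21) and RefSeq promoters lie on GRCm38, another build than mm39, so coordinates and sequences are those of the annotation and were not set against the deposited values.

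Genes were filtered with filterByExpr by group, which kept 23003, scaled by TMM and compared by edgeR's quasi-likelihood test in 1 fit of all 6 libraries (R 4.3.3, limma 3.58.1, edgeR 4.0.16), with Benjamini-Hochberg adjustment over all genes and a threshold of 0.05. Calls were also counted over genes above the filter's limit of 0.0332 CPM, before TMM, in every library, a count added after seeing the data. CPM are TMM-scaled and TPM divide counts by transcript length. A transcript of Klf1 with no length was left out of TPM. Bounds use a floor of 3 counts per library. Taken as read counts, the libraries of a group differed with a chi-square per degree of freedom of 343.4 in N4, 118.4 in T4 and 2207 in naive. Since the relation of these estimates to reads is not known, the values cannot be set against sampling noise. Each library was counted as a replicate. The procedure was tested on simulated data. Alternatives were library size and RLE scaling, no filter, DESeq2 1.42.0, a replicate block, a fit of only the groups compared, each library left out, the globin pairs summed, globins left out of the scaling, and, for shares and ratios, division by transcript length and leaving out Epor.

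The 9 members and all lists were chosen with earlier results of these data known. Beside the members, the text names up to 4 genes a list: those with the smallest p in N4 against naive among genes called in any comparison, then those of highest mean CPM. It also names the 5 genes most like each profile (mean log2 CPM of at least 1, prior count 2). Some genes of these lists are not reported here.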

Additional observations from a re-analysis of the deposited data

How the results depend on the processing

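In N4 against naive, 8 of the 9 red cell genes were called under library size scaling, RLE scaling and with globins left out of the scaling, 9 with no filter or by DESeq2, and 6 of 7 with the globin pairs summed. Leaving out a library gave 4 to 8. In N4 against T4 the counts were the same, but leaving out a library gave 0 to 8. In T4 against naive 0 were called under every alternative except DESeq2, which called 1. Single genes kept their side of the threshold under 111 of 122 gene and alternative pairs in N4 against naive, 94 of 122 in N4 against T4 and 121 of 122 in T4 against naive. In T4 against naive the direction turned without T4 replicate 2 (Hbb-bs -0.05, Hbb-bt -0.11, Hba-a1 -0.04, Hba-a2 -0.02), without naive replicate 1 (-0.39, -0.47, -0.44 and -0.41 for the same genes) and, for Slc4a1, without naive replicate 2 (0.018). With a library left out, these values ranged up to 1.03, 0.99, 1.13 and 1.12 for the globins in the same order, and down to -1.44 for Slc4a1. The cause was not tested.

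Counts of all genes called moved more. In N4 against naive (2772) they were 4257 with no filter, 1044 in a fit of only these groups, 6657 with DESeq2 and 639 to 4487 with a library left out. In T4 against naive (27) they were 53 under library size scaling, 0 with RLE, 956 with no filter, 0 in a fit of only these groups, 2231 with DESeq2 and 0 to 357 with a library left out. In N4 against T4 (1830) they were 3834 with no filter, 5281 in a fit of only these groups, 6232 with DESeq2 and 0 to 4547 with a library left out. Over all genes, median log2 fold changes under library size scaling were -0.65 in N4 against naive, 0.30 in T4 against naive and -1.05 in N4 against T4.

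The labels do not say that replicate numbers pair the libraries. Deviations of same-numbered libraries correlated at 0.0798 (N4 and naive), 0.0372 (T4 and naive) and 0.0174 (N4 and T4). With a single difference per group, these values cannot show whether the libraries were paired. With a replicate block 3620, 130 and 3367 genes were called in N4 against naive, T4 against naive and N4 against T4, and 8, 0 and 8 of the 9.

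Divided by transcript length, the globin share was 0.0372% in N4 and 1.38% in T4, precursor genes per 1000 globins were 6.12 in N4, 12.2 in T4 and 9.72 in naive, and beta over alpha was 0.574 in T4. Without Epor the precursor genes came to 10.7 per 1000 globins in N4. Depth limits Alas2 and Slc4a1, with 0 to 17 counts in N4.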
